A study of Mus musculus with 16 samples.

Results

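The Fc gamma receptors and their signalling chain are the 5 genes Fcgr1, Fcgr3, Fcgr4, Fcer1g and Fcgr2b. They were taken by symbol, and all 5 were among the 18167 genes of the table. Fcgr1, Fcgr3, Fcgr4 and Fcer1g are treated as activating and Fcgr2b as inhibitory.

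Whole spinal cord RNA of 16 transgenic mice, labelled male, was sequenced by RNA-Seq, with 1 library per mouse. Every mouse carried human PFN1, the gene of the actin-binding protein profilin, under the Prnp promoter, which is active well beyond neurons. C57BL/6N mice of the strain with the transgene Tg(Prnp-PFN1*G118V)838Kiaei carried the G118V form, a variant known from familial amyotrophic lateral sclerosis, and formed a young group (MY, n = 3, 50 days old) and an end-stage group (MO, n = 5, 175 to 245 days old). C57BL/6N mice of the strain with the transgene Tg(Prnp-PFN1)850Kiaei carried the wild-type form and formed a young group (WY, n = 3, 50 days old) and an old group (WO, n = 5, 190 to 294 days old). By the labels, all young mice, WO1 to WO3 and MO1 to MO3 were of batch 1, and WO4, WO5, MO4 and MO5 were of batch 2. WO4 and WO5 were also the oldest mice, at 294 days, so that in WO the batch and this age cannot be told apart.

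Fc gamma receptors are membrane proteins that bind IgG antibody on whatever it has coated. The activating receptors pass the signal on through the chain encoded by Fcer1g, whose activation motif is phosphorylated by kinases of the Src family and then holds the kinase Syk, which leads to engulfment and to the release of mediators. Fcgr2b carries an inhibitory motif in its own tail, which brings in phosphatases such as that encoded by Inpp5d and dampens the same pathway, and in the spinal cord these receptors are known mainly from microglia and macrophages.

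The values are log2(1 + FPKM), where FPKM is the number of fragments per length of transcript and per mapped fragments, as adjusted for batch by the authors. FPKM in the text were taken back from these values, with those below 0 set to 0, and are per length of transcript. Neuronal Snap25, at 10.22 to 10.63 over the group means, and astrocytic Gfap, at 9.50 to 11.10, were among the higher log2 levels of the marker lists, and Chat of motor neurons was at 3.28 to 3.95. Xist, the RNA that coats an inactive X chromosome, was at log2 level 3.21 in MO5 and at most 0.37 in any other mouse. Ddx3y, a gene of the Y chromosome, was at 1.95 in MO5 and at least 4.06 in the others. MO5 thus stood apart from its label as male. The log2 differences of the 5 genes with MO, the activating minus inhibitory difference and the count of pathway genes from WO to MO are given with and without it, and the other values with MO include it.

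In the G118V mice, all 5 genes were far higher at end stage than in any other group, and the inhibitory receptor differed most on the log2(1 + FPKM) scale. All 5 MO mice lay above all 11 other mice in each of the 5 genes, a pattern held by 7.58% of all genes. In this bulk tissue, a larger number of cells that carry a transcript and more of it per cell cannot be told apart. The account below takes the activating receptors first, then their chain, then the inhibitory receptor.

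Fcgr1 encodes the high-affinity receptor for IgG. Its log2 level was 1.27, 1.40 and 1.36 in WY1 to WY3 and 1.21, 1.31 and 1.31 in MY1 to MY3. In WO1 to WO5 it was 1.18, 1.41, 1.26, 0.90 and 0.99, and in MO1 to MO5 it was 2.31, 2.94, 2.91, 2.57 and 2.57. The 3 lower groups overlapped, with WO4 and WO5 lowest, and MO1, the lowest MO mouse, was 0.90 above WO2, the highest of the others. The group means were 1.34 ± 0.06 in WY, 1.28 ± 0.06 in MY, 1.15 ± 0.21 in WO and 2.66 ± 0.27 in MO (SD).

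Fcgr3 encodes a receptor of lower affinity and had the most abundant receptor transcript of the 4. Its log2 level was 3.46, 3.26 and 3.24 in WY1 to WY3 and 3.42, 3.56 and 3.44 in MY1 to MY3. In WO1 to WO5 it was 3.77, 3.51, 3.65, 3.15 and 2.86, and in MO1 to MO5 it was 5.81, 5.88, 5.68, 5.17 and 5.25. MO4 and MO5 were the lower MO mice here, and MO4 still lay 1.40 above WO1, the highest of the others. The group means were 3.32 ± 0.12 in WY, 3.47 ± 0.08 in MY, 3.39 ± 0.38 in WO and 5.56 ± 0.33 in MO (SD).

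Fcgr4, a mouse receptor for antibody of the IgG2 classes, was the least abundant of the 5. Its log2 level was 0.42, 0.17 and 0.35 in WY1 to WY3 and 0.44, 0.58 and 0.39 in MY1 to MY3. In WO1 to WO5 it was 0.41, 0.24, 0.41, -0.00 and 0.05, and in MO1 to MO5 it was 1.85, 1.93, 1.66, 1.54 and 1.70. The adjusted level was thus at or near 0 in WO4 and WO5 and at least 1.54 in every MO mouse. Before the batch adjustment no level can lie below 0, so the value of WO4 does not show that the transcript was absent. MO4 lay 0.96 above MY2, the highest of the others. The group means were 0.31 ± 0.13 in WY, 0.47 ± 0.10 in MY, 0.22 ± 0.20 in WO and 1.74 ± 0.15 in MO (SD).

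Fcer1g, the signalling chain, was the most abundant of the 5. Its log2 level was 4.12, 3.74 and 4.16 in WY1 to WY3 and 3.82, 4.17 and 4.13 in MY1 to MY3. In WO1 to WO5 it was 4.26, 4.53, 4.51, 3.75 and 3.64, and in MO1 to MO5 it was 6.13, 6.68, 7.00, 6.11 and 6.21. MO2 and MO3 stood above the other MO mice, and MO4, the lowest of them, was 1.58 above WO2. The group means were 4.01 ± 0.23 in WY, 4.04 ± 0.19 in MY, 4.14 ± 0.42 in WO and 6.43 ± 0.40 in MO (SD).

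Fcgr2b is the inhibitory receptor. Its log2 level was 1.65, 1.56 and 1.64 in WY1 to WY3 and 1.59, 1.497 and 1.67 in MY1 to MY3. In WO1 to WO5 it was 1.62, 1.63, 1.83, 1.26 and 0.94, and in MO1 to MO5 it was 4.86, 4.64, 4.83, 3.62 and 4.22. The MO mice of batch 1 were the higher ones, and MO4, the lowest, was 1.79 above WO3, the widest such gap of the 5 genes. The group means were 1.62 ± 0.05 in WY, 1.59 ± 0.09 in MY, 1.46 ± 0.36 in WO and 4.43 ± 0.52 in MO (SD).

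**Figure D1:**
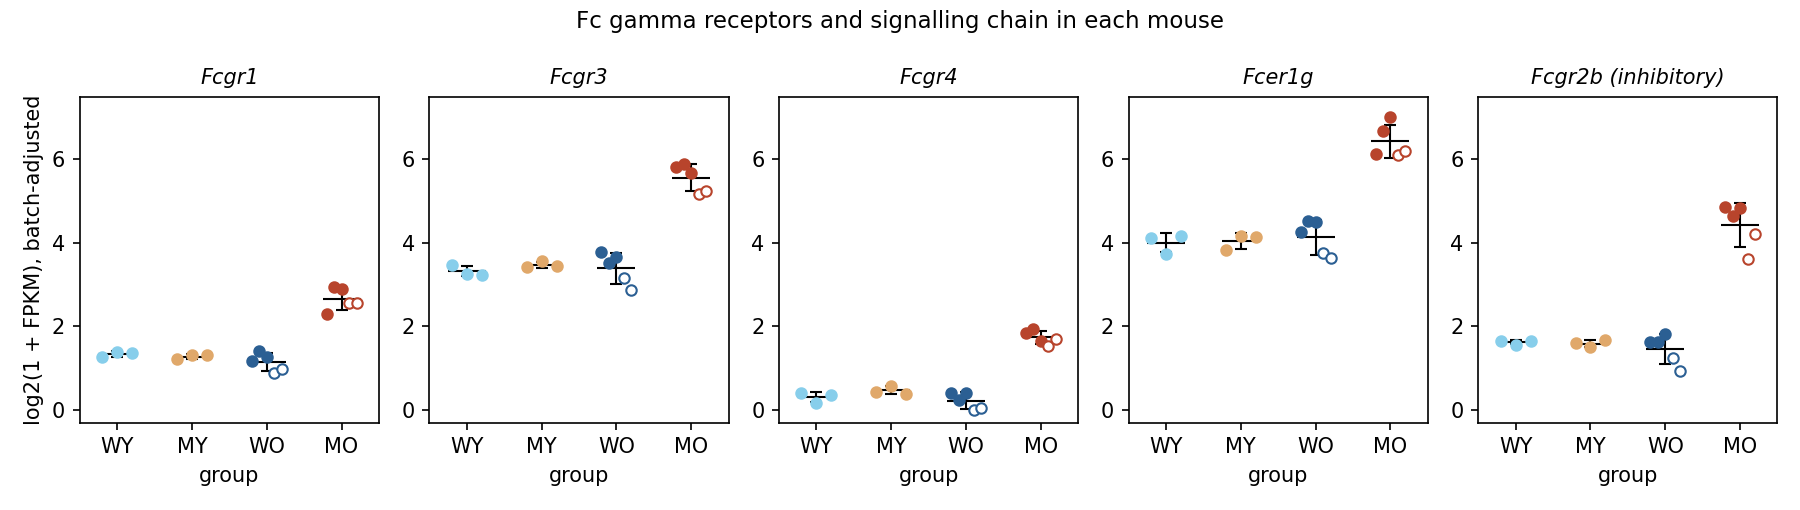
Log2(1 + FPKM) of each gene in each mouse, by group (filled points batch 1, open points batch 2, line and bars the mean and SD). All 5 MO mice lie above the other 11 in every panel.

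As FPKM, Fcgr2b was 0.914 to 2.55 in the 11 other mice and 28.0, 24.0, 27.5, 11.3 and 17.6 in MO1 to MO5. Fcgr3 was at 6.27 to 12.7 FPKM in the other mice and at 55.3, 58.1, 50.3, 35.0 and 36.9 in MO1 to MO5. The ratio of mean FPKM in MO to that in WO was 12.0 for Fcgr2b, against 4.82 for Fcgr3, 4.38 for Fcgr1 and 5.11 for Fcer1g. For Fcgr4 the same ratio was 13.3, with WO4 set to 0 from an adjusted value below 0. From MY to MO, where no mouse was at 0, the ratio was 6.03 for Fcgr4 and 10.8 for Fcgr2b. With so little Fcgr4 in the controls, its ratio rests on FPKM of at most 0.494 in any of them.

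The order of the levels was Fcer1g, Fcgr3, Fcgr2b, Fcgr1 and Fcgr4 from high to low, per length of transcript, in 15 of the 16 mice. In WO5 alone Fcgr1 was above Fcgr2b, by 0.05 on the log2 scale. Fcgr2b and Fcgr1 were thus the neighbours that did not differ beyond their spread in the WO group, where their means were 1.46 and 1.15. The smallest log2 difference in any mouse was 0.31 between Fcer1g and Fcgr3, in MO1, 0.85 between Fcgr3 and Fcgr2b, in MO3, and 0.46 between Fcgr1 and Fcgr4, in MO1. Among all genes, Fcgr2b stood above 31.7% of them by its WO mean and above 76.9% by its MO mean, and Fcer1g above 72.5% and 94.7%.

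The comparison of WO with MO asks how the genotypes differ at the age of end stage. All 5 genes rose, by limma over all genes with a Benjamini-Hochberg FDR up to 0.05 and a fold change of 1.5 or more, where 4.08% of all genes did so. Fcgr2b rose by 2.98 ± 0.25 on the log2 scale (SE, limma FDR 2.48e-05), the 16th largest of 18167 such differences. Fcer1g rose by 2.29 ± 0.23 (limma FDR 5.92e-05) and Fcgr3 by 2.17 ± 0.20 (limma FDR 3.77e-05). Fcgr4 rose by 1.51 ± 0.10 (limma FDR 1.46e-05) and Fcgr1 by 1.51 ± 0.13 (limma FDR 3.24e-05). Their ranks among all genes were 47 for Fcer1g, 56 for Fcgr3, 146 for Fcgr4 and 147 for Fcgr1, and the median difference over all genes was 0.00. Without MO5 the log2 differences were 3.03 for Fcgr2b, 2.34 for Fcer1g, 2.25 for Fcgr3, 1.52 for Fcgr4 and 1.53 for Fcgr1. With all mice and a pseudocount of 0.1 they were 3.52 for Fcgr2b, 3.37 for Fcgr4, 2.35 for Fcer1g, 2.27 for Fcgr3 and 2.05 for Fcgr1.

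Within batch 1, with 3 mice in each of WO and MO, the log2 difference was 3.08 for Fcgr2b, 2.17 for Fcer1g, 2.15 for Fcgr3, 1.45 for Fcgr4 and 1.44 for Fcgr1. Within batch 2, with 2 mice in each, it was 2.82 for Fcgr2b, 2.46 for Fcer1g, 2.20 for Fcgr3, 1.60 for Fcgr4 and 1.63 for Fcgr1. The size of the difference was thus alike in both batches. The levels were not: all 5 genes were lower in batch 2 in both groups, which held for 22.0% of all genes and for 81.4% of the 742 genes that rose from WO to MO. For Fcgr2b, batch 2 lay below batch 1 by a log2 difference of -0.60 in WO and -0.86 in MO, and for Fcer1g by -0.74 and -0.45. The part of batch in these levels was not tested beyond the within-batch values.

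The comparison of MY with MO follows the G118V mice from the presymptomatic age to end stage, and shares the MO mice with the one above. All 5 genes rose, where 4.11% of all genes did so. Fcgr2b rose by 2.85 ± 0.27 on the log2 scale (SE, limma FDR 0.000331), Fcer1g by 2.38 ± 0.21 (limma FDR 0.000314) and Fcgr3 by 2.09 ± 0.17 (limma FDR 0.000270). Fcgr1 rose by 1.38 ± 0.14 (limma FDR 0.000428) and Fcgr4 by 1.26 ± 0.09 (limma FDR 0.000203). Without MO5 the log2 differences were 2.90 for Fcgr2b, 2.44 for Fcer1g, 2.16 for Fcgr3, 1.40 for Fcgr1 and 1.27 for Fcgr4. Batch 2 held no young mouse, so only batch 1 gives this comparison within a batch.

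The interaction asks whether the difference with age was another in G118V mice than in mice with the wild-type form, as (MO minus MY) minus (WO minus WY). All 5 genes had a higher difference with age in the G118V mice, where 4.65% of all genes did so. The log2 interaction was 3.01 ± 0.35 for Fcgr2b (SE, limma FDR 7.01e-05), 2.25 ± 0.34 for Fcer1g (limma FDR 0.000413) and 2.02 ± 0.28 for Fcgr3 (limma FDR 0.000255). It was 1.57 ± 0.19 for Fcgr1 (limma FDR 8.55e-05) and 1.35 ± 0.15 for Fcgr4 (limma FDR 6.51e-05). Without MO5 it was 3.07 for Fcgr2b, 2.31 for Fcer1g, 2.09 for Fcgr3, 1.60 for Fcgr1 and 1.36 for Fcgr4.

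The comparison of WY with MY asks whether the genotypes already differ at 50 days. None of the 5 genes passed the limma test, where 0.0055% of all genes did so, and 0 of the 5 had an unadjusted p under 0.05, against 1301 of all genes. The 1 gene called was Prnp, whose promoter drives both transgenes, and it is named after its values were seen. Its log2 level was 8.63 in WY and 10.57 in MY. The authors saw no significant change of Prnp by qRT-PCR in this comparison. They propose that reads of the transgene, whose vector holds Prnp sequence, may have been aligned to Prnp. That was not tested here. The log2 difference of Fcgr2b was -0.03, with a 95% interval from -0.17 to 0.11, and that of Fcgr1 was -0.06, from -0.19 to 0.06. For Fcgr3 it was 0.15, from -0.03 to 0.34, for Fcgr4 0.16, from -0.04 to 0.36, and for Fcer1g 0.03, from -0.31 to 0.38. Each of these intervals lies well below the difference of the same gene at end stage.

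The comparison of WY with WO asks what age did in mice with the wild-type form. None of the 5 genes passed the limma test, where 0.253% of all genes did so, and 0 of the 5 had an unadjusted p under 0.05, against 2447 of all genes. The log2 difference of Fcgr2b was -0.16, with a 95% interval from -0.58 to 0.25, and that of Fcgr1 was -0.19, from -0.45 to 0.06. For Fcgr3 it was 0.07, from -0.38 to 0.52, for Fcgr4 -0.09, from -0.35 to 0.17, and for Fcer1g 0.13, from -0.39 to 0.65. All WY mice were of batch 1, and within batch 1 the log2 difference was 0.08 for Fcgr2b, -0.06 for Fcgr1, 0.33 for Fcgr3, 0.04 for Fcgr4 and 0.43 for Fcer1g. With a batch term it was 0.13 for Fcgr2b, -0.10 for Fcgr1, 0.32 for Fcgr3, 0.01 for Fcgr4 and 0.37 for Fcer1g. The direction for Fcgr2b and Fcgr4 thus turned with the treatment of batch, and no gene passed the test in either.

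Set against each other, the activating and the inhibitory receptors did not keep their balance at end stage. The mean log2 level of Fcgr1, Fcgr3 and Fcgr4 minus that of Fcgr2b was 0.07, 0.05 and 0.01 in WY1 to WY3 and 0.10, 0.32 and 0.05 in MY1 to MY3. In WO1 to WO5 it was 0.17, 0.09, -0.05, 0.09 and 0.36, and in MO1 to MO5 it was -1.54, -1.06, -1.42, -0.53 and -1.05. All MO mice thus lay below all others, with MO4 nearest to them. The group means were 0.04 ± 0.03 in WY, 0.15 ± 0.14 in MY, 0.13 ± 0.15 in WO and -1.12 ± 0.40 in MO (SD), and the MO mean was -1.13 without MO5. From WO to MO this difference fell by 1.25 on the log2 scale, by 1.41 in batch 1 and by 1.01 in batch 2. It is a description over chosen genes and was not tested. The sign in the 3 lower groups depends on the pseudocount, as it was -0.35 in WY, -0.10 in MY and -0.34 in WO with 0.1 in place of 1.

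The ratio of Fcgr3 to Fcgr2b shows the same in FPKM, per length. It was 4.68, 4.39 and 3.96 in WY1 to WY3, 4.81, 5.92 and 4.51 in MY1 to MY3, and 6.09, 4.96, 4.54, 5.69 and 6.86 in WO1 to WO5. In MO1 to MO5 it was 1.97, 2.42, 1.83, 3.10 and 2.10, so that the highest MO mouse lay below the lowest of the others. The ratio of Fcgr1 to Fcgr2b in FPKM was 0.141 to 0.437 in the MO mice, below the 0.550 to 1.07 of WO. The FPKM ratio of Fcgr4 to Fcgr2b was on average 0.117 in WY, 0.198 in MY, 0.0830 in WO and 0.117 in MO, and the groups overlapped. From WO to MO it went from 0.126 to 0.0961 within batch 1 and from 0.0187 to 0.149 within batch 2, where Fcgr4 was at or near 0 in WO. On the log2(1 + FPKM) scale, Fcgr4 minus Fcgr2b was -1.23 ± 0.21 in WO and -2.70 ± 0.43 in MO (SD). This change depends on the pseudocount, as with 0.1 the log2 rise from WO to MO was 3.37 for Fcgr4 and 3.52 for Fcgr2b.

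Fcgr2b made up 15.4%, 15.9% and 17.2% of the summed FPKM of the 4 receptors in WY1 to WY3 and 15.1%, 12.5% and 15.8% in MY1 to MY3. It made up 12.7%, 14.6%, 16.1%, 13.7% and 11.1% in WO1 to WO5 and 31.2%, 26.2%, 31.8%, 21.3% and 28.5% in MO1 to MO5. The share of the inhibitory receptor was thus higher in each MO mouse than in any other. Fcgr3 remained the largest, at a mean of 75.5% ± 2.50 of the summed FPKM in WO and 61.8% ± 3.02 in MO (SD). Fcgr1 was at 9.71% ± 1.89 and 7.30% ± 1.80. The small share of Fcgr4 in the sum was higher in MO, at 3.14% ± 0.491, than in WO, at 1.17% ± 0.943 (SD). Each MO mouse lay above each WO mouse in this share, but MO overlapped with MY, at 2.27% to 3.39%. The sum itself was 8.20 to 16.3 FPKM in WO and 53.1 to 91.5 in MO. Within batch 1 the Fcgr2b share was 14.5% in WO and 29.7% in MO, and within batch 2 it was 12.4% and 24.9%.

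**Figure D2:**
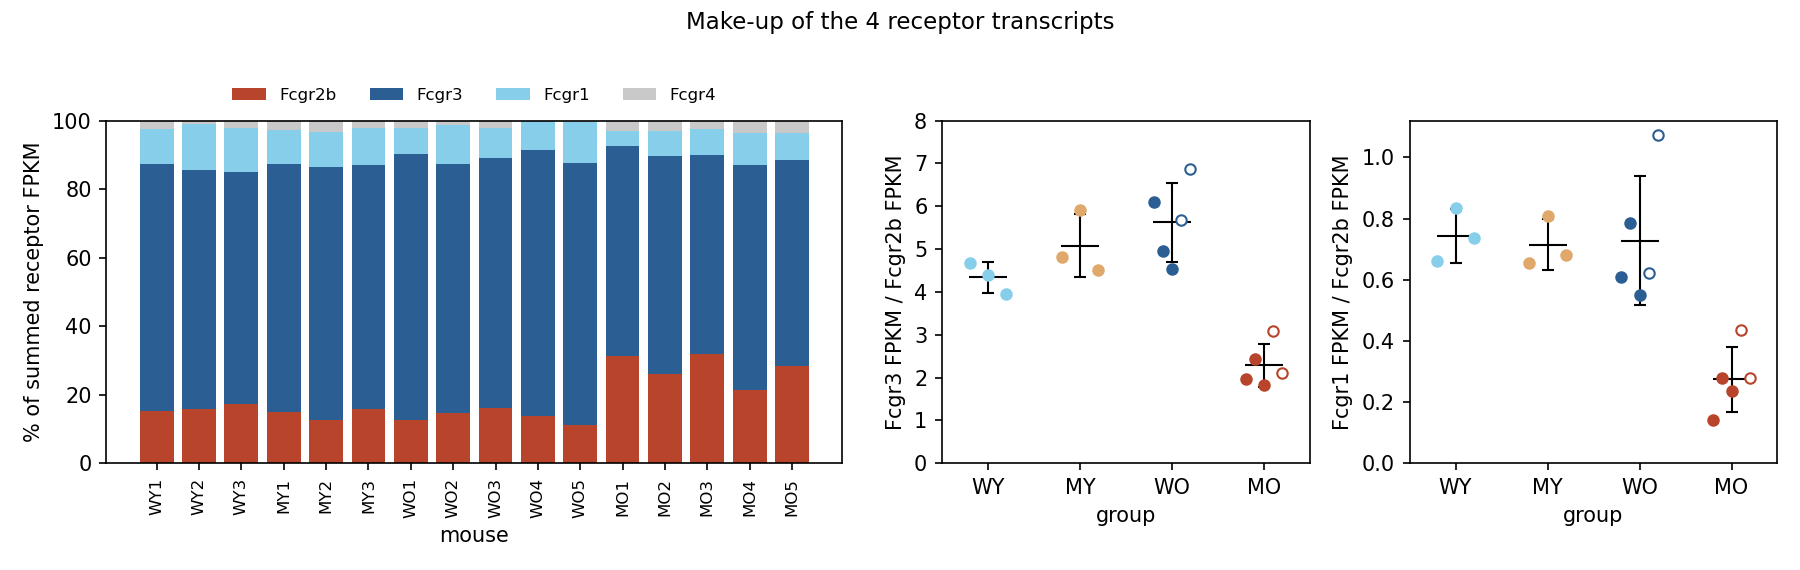
Left, the share of each receptor in the summed FPKM of the 4 receptors in each mouse. Centre and right, the FPKM ratios of Fcgr3 and Fcgr1 to Fcgr2b by group (filled points batch 1, open points batch 2, mean and SD), with all MO mice below the others.

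The chain kept pace with the receptors that use it. The FPKM of Fcer1g over the summed FPKM of Fcgr1, Fcgr3 and Fcgr4 was 1.41 ± 0.226 in WY, 1.30 ± 0.135 in MY, 1.54 ± 0.200 in WO and 1.61 ± 0.374 in MO (SD), and the groups overlapped. Against Tyrobp, a chain of the same kind that serves other receptors of myeloid cells, the FPKM of Fcer1g was 0.407 to 0.420 in the MY mice, above all MO mice, at 0.273 to 0.382. In WY it was 0.364 to 0.395 and in WO 0.342 to 0.471, and both overlapped with MO. The means were 0.410 in WO and 0.318 in MO. Within batch 1 the mean went from 0.380 in WO to 0.314 in MO, with overlap, and within batch 2 from 0.455 to 0.325, without overlap.

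Among the MO mice the 5 genes did not order the mice alike. MO1 had the lowest Fcgr1 of the group and the highest Fcgr2b. Over the deviations of the 16 mice from their group means, Pearson's r was 0.853 between Fcgr2b and Fcgr3 and 0.845 between Fcgr3 and Fcgr4. It was 0.828 between Fcgr1 and Fcer1g, but 0.440 between Fcgr1 and Fcgr3, 0.375 between Fcgr1 and Fcgr2b and 0.331 between Fcgr1 and Fcgr4. These are descriptions over 16 mice that share batches and groups, without a test. The other 4 pairs lay between 0.576 and 0.680, and over the levels of all 16 mice, which hold the difference of MO from the rest, r was 0.958 to 0.989 for the 10 pairs.

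Of the other genes, Tyrobp (r = 0.980) and the complement gene C1qa (0.948) were among the 3 with deviations most like those of Fcer1g over the 16 mice. For Fcgr2b the 3 were Slc11a1 (0.951), a metal transporter of phagosomes, Serpina3n (0.937), a protease inhibitor, and the complement gene C4b (0.930). For Fcgr3 they were C4b (0.928), the Src family kinase gene Lyn (0.923) and Arhgdib (0.901), a regulator of small GTP-binding proteins. For Fcgr1 they were Cd52 (0.945), a surface protein of leukocytes, the chemokine gene Ccl3 (0.941) and Irf8 (0.927), a transcription factor of myeloid cells. For Fcgr4 they were the metallothionein genes Mt2 (0.908) and Mt1 (0.898) and Ggt5 (0.894). By the levels themselves the closest were Tyrobp for Fcer1g (0.997), Serpina3n for Fcgr2b (0.996), Lyn for Fcgr3 (0.993), Ccl3 for Fcgr1 (0.995) and Ifi204 for Fcgr4 (0.990). Also among the closest 3 were Itgb2 (0.995) for Fcer1g, Csf2rb (0.995) and Slc11a1 (0.995) for Fcgr2b, and Cd48 (0.993) and Arhgdib (0.993) for Fcgr3. For Fcgr1 they were Irf8 (0.995) and Cd52 (0.993), and for Fcgr4 Sprr1a (0.990) and Atf3 (0.987).

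The other genes of the pathway, 77 measured of 97 listed, rose in part. From WO to MO 30 of the 77 rose and none fell, with a median log2 difference of 0.21, and without MO5 the counts were also 30 and 0. From MY to MO 29 rose and none fell, and in the interaction 28 were higher and none lower. From WY to MY none was called, and from WY to WO the only one was Fcrls, which fell by 0.91 ± 0.16 on the log2 scale (SE, limma FDR 0.0461).

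Of the ligands, 3 of 15 genes were measured, and the antibody genes Ighg1, Ighg2b, Ighg2c, Ighg3, Ighm, Ighd, Igha, Ighe, Igkc, Iglc1 and Iglc2 and the pentraxin gene Apcs were not analysed here. Ptx3, a pentraxin that can bind Fc gamma receptors, was the 1 that rose, from a mean log2 level of 0.41 in WO to 1.64 in MO, by 1.23 ± 0.11 (SE, limma FDR 3.59e-05). Jchain, which joins units of IgM and IgA, was at 0.40 in WO and 0.42 in MO and was not called. The median log2 difference of the 3 was 0.03.

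Of the other receptors and relatives, 2 of 10 measured rose from WO to MO, the others were not called, and the median log2 difference was 0.02. Fcrls, an Fc receptor-like gene of mouse microglia, was at a mean log2 level of 3.21 in WY, 3.06 in MY, 2.30 in WO and 5.26 in MO, and rose from WO to MO by 2.95 ± 0.24 (SE, limma FDR 2.32e-05). The other, Fcrl1, was under 1 FPKM in every mouse, and is named after its values were seen. Fcgrt, the neonatal receptor that recycles IgG, was at 3.70 in WO and 3.94 in MO, and Trim21, a receptor for antibody in the cytosol, at 1.31 and 1.70. Both missed the fold change of 1.5. Fcrlb, the smallest of the list at a log2 difference of -0.19, was not called. Of the 10, 7 were under 1 FPKM in every mouse, and Fcrl5, Fcer1a, Ms4a2 and Pigr were not analysed here.

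Of the 6 other signalling chains listed, Tyrobp and Hcst rose from WO to MO and the others were not called, with a median log2 difference of 0.24. Tyrobp was at a mean log2 level of 5.38 in WO and 8.08 in MO, a difference of 2.69 ± 0.32 (SE, limma FDR 0.000169). Hcst, a chain that pairs with NKG2D, was at 0.69 and 2.06, and is named after its values were seen. Cd79a, of the B cell receptor, had the smallest difference, at -0.17, and was not called. None of the 5 other measured receptors that pair with Fcer1g was called, and their median log2 difference was 0.12. Clec4n, a receptor for fungal sugars, had the largest difference of them, from 0.08 to 0.53, and Oscar, a receptor for collagen, the smallest, from 1.05 to 1.04. Clec4e, Clec4d, Gp6 and Clec4b1 were not analysed here.

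Of the 15 kinases, 9 rose from WO to MO and none fell, with a median log2 difference of 0.79. The Src family kinase genes Lyn and Fgr rose by 1.21 ± 0.11 (SE, limma FDR 3.69e-05) and 0.87 ± 0.13 (limma FDR 0.000576) on the log2 scale. Syk, which docks on the phosphorylated chain, went from a mean log2 level of 0.77 in WO to 1.72 in MO, a rise of 0.95 ± 0.09 (SE, limma FDR 5.57e-05). Prkce, a protein kinase C gene, had the smallest difference, at -0.20, and was not called.

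Of the 25 adaptors and effectors, 11 rose from WO to MO and none fell, with a median log2 difference of 0.22. Arpc1b, a subunit of the complex that branches actin filaments, had the largest difference, at 1.61 ± 0.10 (SE, limma FDR 1.46e-05). Vav1, an exchange factor for Rac, rose by 1.18 ± 0.10 (SE, limma FDR 2.61e-05), and Plcg2, a phospholipase, by 0.87 ± 0.10 (limma FDR 0.000108). Amph, which is known from synaptic vesicle recycling, had the smallest difference, at -0.21, and was not called.

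Of the 13 phosphatases and adaptors in the list named inhibitory, 5 rose from WO to MO and none fell, with a median log2 difference of 0.25. The direction in which each of them, Ptprc included, acts on this pathway was not tested. Inpp5d, the lipid phosphatase that Fcgr2b recruits, went from a mean log2 level of 1.89 in WO to 3.09 in MO, a rise of 1.20 ± 0.12 (SE, limma FDR 7.38e-05). Ptpn6, a tyrosine phosphatase of blood and microglial cells, rose by 1.67 ± 0.15 (SE, limma FDR 3.65e-05), and Ptprc, the membrane phosphatase CD45, by 1.68 ± 0.14 (limma FDR 2.55e-05). The other two, Dok1 and Cd300a, rose by 0.88 and 0.78, and are named after their values were seen. Dok3, an inhibitory adaptor, was at -0.11 and was not called.

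**Figure D3:**
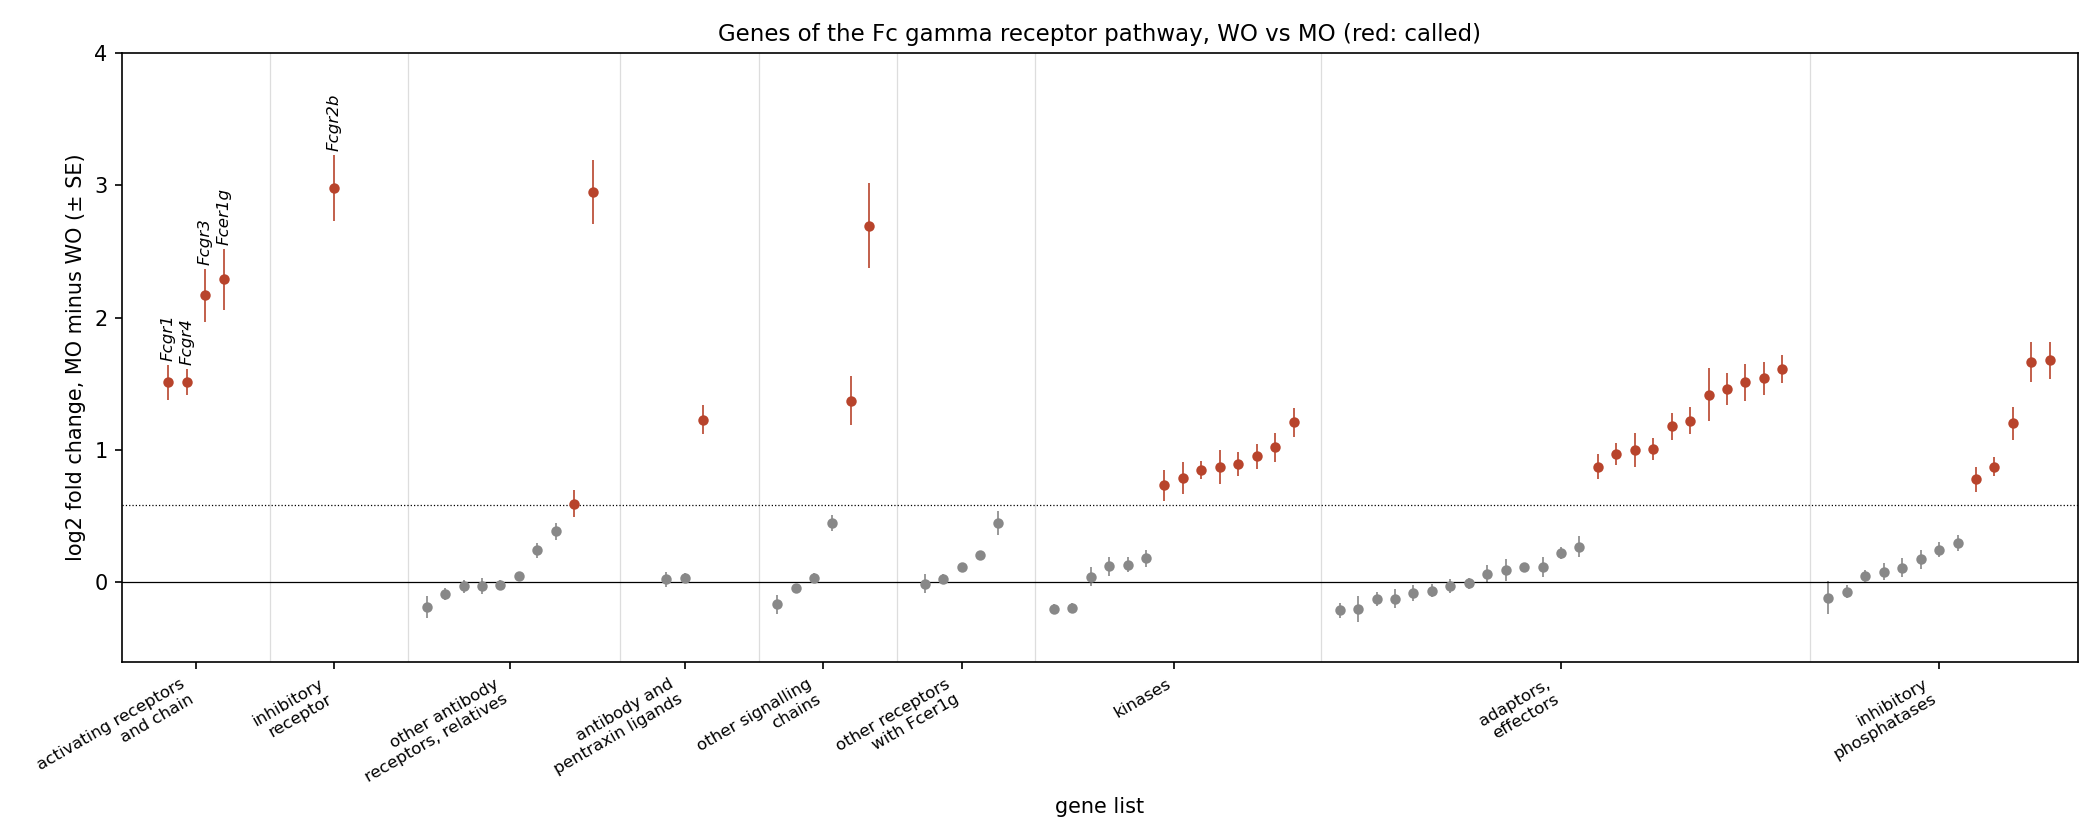
Log2 fold change from WO to MO with its SE for the genes reported from the pathway lists (red, called; dotted line, a fold change of 1.5). All genes called are higher in MO, and the 5 receptor and chain genes are labelled.

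Markers of microglia and of myeloid cells moved with these genes. Of 12 markers shared by myeloid cells, 12 rose from WO to MO, with a median log2 difference of 1.91, from C1qa, at 2.82 ± 0.21 (SE, limma FDR 2.16e-05), to the integrin gene Itgam, at 0.99 ± 0.14 (limma FDR 0.000431). Their summed FPKM was 372, 382, 423, 247 and 243 in WO1 to WO5 and 1604, 2139, 2429, 1291 and 1458 in MO1 to MO5, and 282 to 333 in the young mice. Ctss, a lysosomal protease, was the most abundant of them, and none was under 1 FPKM throughout. Csf1r, the receptor for the growth factor of microglia, rose from a mean log2 level of 4.82 to 6.10. The part of these markers in the result was not tested.

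Of 10 markers of homeostatic microglia, 6 rose from WO to MO and none fell, with a median log2 difference of 0.67. P2ry12, a receptor that marks resting microglia, was at a mean log2 level of 3.90 in WO and 4.00 in MO and was not called (limma FDR 0.623). Tmem119, another such marker, was at 3.52 and 4.01 and missed the fold change, and the transcription factor gene Sall1 was at 3.58 and 3.57. The summed FPKM of the 10 was 164, 177, 181, 141 and 136 in WO1 to WO5 and 301, 405, 425, 323 and 313 in MO1 to MO5, and 155 to 167 in the young mice. It was thus higher in every MO mouse, by less than the sum of the shared myeloid markers. The part of these markers in the result was not tested.

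Of 9 markers of border-associated macrophages, Ms4a7 rose from a mean log2 level of 0.09 in WO to 1.99 in MO, by 1.90 ± 0.28 (SE, limma FDR 0.000706), and the other 8 were not called, with a median of 0.24 over the 9. Their summed FPKM was 2.33, 3.14, 3.10, 2.39 and 1.77 in WO1 to WO5 and 6.35, 7.26, 11.1, 4.59 and 7.43 in MO1 to MO5, and 2.03 to 3.28 in the young mice. Ms4a7 was also the most abundant of them, and 7 of the 9 were under 1 FPKM in every mouse, Cd163 with a difference of -0.00 among them. The part of these markers in the result was not tested.

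Of 6 markers of monocytes none was called, and 5 were under 1 FPKM in every mouse. The exception was Vcan, an extracellular matrix gene, at 2.87 in WO and 3.26 in MO. Chil3 was at -0.05, and the median log2 difference of the list was 0.02. Of 8 measured markers of neutrophils none was called, with a median of -0.32, from S100a8 at -0.93 to Mpo at 0.00. The difference of S100a8 rests in part on WO2, at a log2 level of 4.19 against 1.56 to 2.39 in the other WO mice. S100a8 was the most abundant, and the summed FPKM of this list was 8.81, 37.9, 3.79, 7.72 and 7.24 in WO1 to WO5 and 8.04, 8.69, 1.32, 5.11 and 1.02 in MO1 to MO5.

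None of the measured markers of dendritic cells (5, median -0.01, Xcr1 at 0.05 to Flt3 at -0.36), natural killer cells (3, median 0.10, Klrb1c at 0.11 to Ncr1 at 0.02) and T cells (7, median 0.05, Cd3g at 0.21 to Thy1 at -0.15) was called from WO to MO. The same held for B and plasma cells (5, median 0.02, Cd79b at 0.45 to Cd79a at -0.17) and for mast cells, of which Kit alone was measured, at 0.02. All natural killer and B cell markers, and the T cell markers other than Thy1, which neurons also express, were under 1 FPKM in every mouse. Of the neutrophil markers 3 of 8, and of the dendritic cell markers 3 of 5, were under 1 FPKM in every mouse. The part of blood cells in the result was not tested.

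Of 6 astrocyte markers, Gfap, Aqp4 and Aldh1l1 rose from WO to MO, with a median log2 difference of 0.61 over the list. Gfap, of astrocyte filaments, had the largest difference, at 1.60 ± 0.10 (SE, limma FDR 1.46e-05), and Slc1a2, a glutamate transporter, the smallest, at 0.16. The summed FPKM of the 6 was 1880, 1780, 1908, 1919 and 1719 in WO1 to WO5 and 3409, 4215, 3801, 3243 and 3410 in MO1 to MO5, and 2042 to 2309 in the young mice. Gfap was the most abundant of the list, and none of the 6 was near 0. Aqp4 and Aldh1l1 are named after their values were seen, and the part of these markers in the result was not tested.

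Of 5 markers of motor neurons, Chat, which makes acetylcholine, fell by 0.67 on the log2 scale (SE 0.06, limma FDR 3.13e-05), and the others were not called, with a median of -0.49 and Prph at -0.10. The summed FPKM of these 5 was 115, 94.4, 98.4, 96.8 and 100 in WO1 to WO5 and 81.8, 86.9, 70.4, 95.2 and 77.6 in MO1 to MO5, with Prph the most abundant and none near 0. Over 5 oligodendrocyte markers the median log2 difference was -0.30. Mbp was not called, and its difference rests on WO4, where it was at a log2 level of 5.36 against 12.42 to 14.22 in the other WO mice. The summed FPKM of the oligodendrocyte list was 9568, 8854, 8814, 4489 and 23150 in WO1 to WO5 and 6561, 6988, 7142, 21332 and 20750 in MO1 to MO5, with Mbp the most abundant. The part of these markers in the result was not tested.

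None of 5 neuron markers (median -0.14, Syt1 at 0.04 to Snap25 at -0.41), 6 endothelial markers (median -0.47, Slco1a4 at -0.20 to Cdh5 at -0.57), 5 Schwann cell markers (median -0.08, Sox10 at -0.27) and 4 red blood cell genes (median -0.24, Hbb-bs at 0.00 to Hba-a1 at -0.89) was called from WO to MO. Without MO5, Cdh5 passed the test as lower.

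Of the 5 genes, 4 lie together on mouse chromosome 1. In the GENCODE M21 annotation of GRCm38, Fcgr2b is at chr1:170958617-170976547 on the minus strand, Fcgr4 at chr1:171018920-171029761 on the plus strand, Fcgr3 at chr1:171051174-171064935 on the minus strand and Fcer1g at chr1:171229572-171234365 on the minus strand. Fcgr1 is at chr3:96282909-96293969 on the minus strand. From the start of Fcgr2b to the end of Fcer1g is 275749 bases, with 42372 bases between Fcgr2b and Fcgr4 and 21412 between Fcgr4 and Fcgr3.

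Of the 24 measured protein-coding genes in 500 kb around them, the 4 members rose from WO to MO and 0 of the 20 others was called, with log2 differences from -0.51 to 0.50, where 4.08% of all genes rose. Apoa2, an apolipoprotein gene 3192 bases from Fcer1g, was at a mean log2 level of 1.68 in WO and 1.81 in MO (limma FDR 0.572). Fcrla, beside Fcgr2b, was at 0.06 and 0.04 (limma FDR 0.772). Cfap126, beside Fcgr3, was at 1.98 and 2.48, and missed the fold change from WO to MO at a difference of 0.50 (limma FDR 0.00119). In the interaction it was called higher, at 0.66 ± 0.19 (SE, limma FDR 0.0276). On chromosome 3, the neighbours of Fcgr1 were the histone gene Hist2h2bb, at 0.60 and 0.41, and Hfe2, at 0.36 and 0.30, and neither was called.

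**Figure D4:**
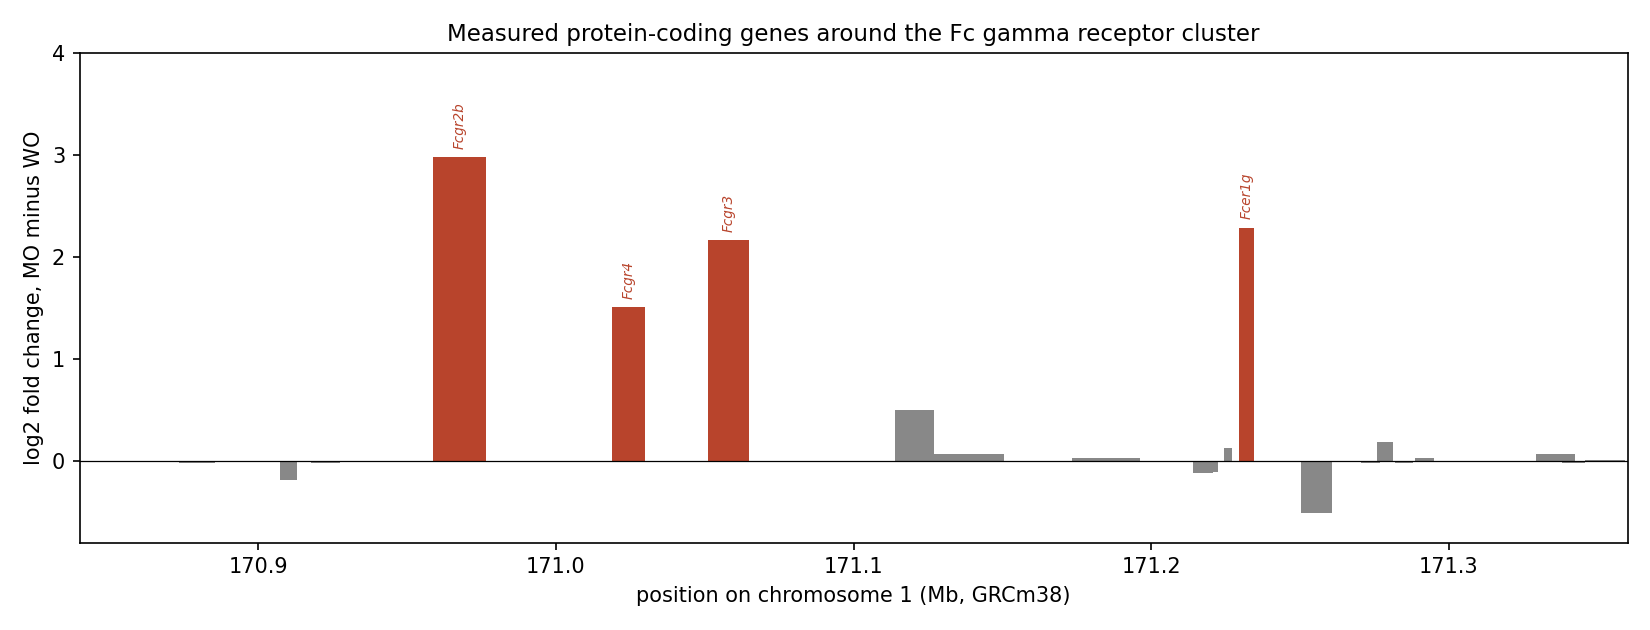
Log2 fold change from WO to MO (height) of the protein-coding genes reported along chromosome 1 around the cluster, in Mb of GRCm38 (bar width, the gene's extent). Fcgr2b, Fcgr4, Fcgr3 and Fcer1g (red) stand between 1.51 and 2.98, and the other genes (grey) between -0.51 and 0.50.

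Fcgr2b and Fcgr3 are alike in sequence, which bears on how far their values are separate. Their coding sequences, of 1020 and 801 bases, had 710 identical bases of 799 aligned, or 88.9%. Of windows of 76 bases, 92 were shared by both, which is 2.65% to 9.12% of the windows of the 4 protein-coding Fcgr2b transcripts and 0 to 7.37% of those of the 3 of Fcgr3. In the longest Fcgr2b transcript 242 windows were shared with other genes, 23 in all with Fcgr3 among them. Fcgr1, Fcgr4 and Fcer1g shared no such window with any other gene. The longest shared stretch was of 243 coding bases with 1 difference, over exons 5 to 6 of Fcgr2b and exons 3 to 4 of Fcgr3, and is shown because a read that falls wholly to either side of that base belongs to both genes alike. It lies within chr1:170966560-170968081 for Fcgr2b and chr1:171054053-171057792 for Fcgr3 in GRCm38, both on the minus strand and each spanning an intron, and the differing base, at position 130, is in capitals in the GENCODE M21 transcripts.
Fcgr2b: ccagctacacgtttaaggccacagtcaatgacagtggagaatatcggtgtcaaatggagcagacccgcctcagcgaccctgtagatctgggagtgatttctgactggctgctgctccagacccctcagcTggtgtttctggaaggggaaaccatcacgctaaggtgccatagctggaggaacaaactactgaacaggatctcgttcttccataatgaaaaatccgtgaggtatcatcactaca
Fcgr3: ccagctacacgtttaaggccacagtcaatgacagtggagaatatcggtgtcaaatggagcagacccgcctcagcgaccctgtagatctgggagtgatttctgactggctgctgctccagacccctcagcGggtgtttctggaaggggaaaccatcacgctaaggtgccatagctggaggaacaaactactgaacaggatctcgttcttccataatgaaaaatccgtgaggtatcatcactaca
How reads that match more than 1 gene were shared out is not given, and the part of this stretch in the values was not tested. In each transcript of Fcgr2b and Fcgr3, above 90% of the windows of 76 bases were not shared by both genes. Only exact matches over 76 bases were counted, which is the longest length of the authors' cleaned reads. Shorter reads, and matches with mismatches, can be shared more often, and these were not counted.

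The promoters of all 5 genes are shown, so that those with and without a match to the letters searched for stand side by side. The sequences are the 250 bases before the start annotated in RefSeq on GRCm38.p6. For Fcgr3 and Fcgr2b they lie within the gene as placed by GENCODE M21, so the annotations differ on the start. Both strands were searched for GAGGAA, the core bound by PU.1 and its relatives, for TTCNNNGAA, the form bound by STAT factors, and for GAAA, any 2 bases and GAAA again, a form bound by interferon regulatory factors. Capitals mark the matches, and a GAGGAA on the other strand reads TTCCTC. For Fcgr1 (chr3:96293970-96294219, minus strand), TTCNNNGAA ends 100 bases before the start and GAGGAA 49. For Fcgr3 (chr1:171059395-171059644, minus strand), GAGGAA ends 9 bases before the start, the first of 2 listed for this gene. For Fcgr4 (chr1:171018676-171018925, plus strand), the spaced GAAA pair ends 63 bases before the start and GAGGAA 16.
Fcgr1: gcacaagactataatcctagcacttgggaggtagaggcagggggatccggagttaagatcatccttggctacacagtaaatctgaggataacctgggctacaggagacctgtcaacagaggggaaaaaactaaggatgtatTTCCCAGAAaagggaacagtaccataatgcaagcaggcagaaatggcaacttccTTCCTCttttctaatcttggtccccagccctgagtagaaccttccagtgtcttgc
Fcgr3: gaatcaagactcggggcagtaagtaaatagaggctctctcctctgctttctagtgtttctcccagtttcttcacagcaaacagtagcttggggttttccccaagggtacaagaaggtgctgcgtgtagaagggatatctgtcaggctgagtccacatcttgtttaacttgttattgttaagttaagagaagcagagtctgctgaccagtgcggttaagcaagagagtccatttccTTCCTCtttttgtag
Fcgr4: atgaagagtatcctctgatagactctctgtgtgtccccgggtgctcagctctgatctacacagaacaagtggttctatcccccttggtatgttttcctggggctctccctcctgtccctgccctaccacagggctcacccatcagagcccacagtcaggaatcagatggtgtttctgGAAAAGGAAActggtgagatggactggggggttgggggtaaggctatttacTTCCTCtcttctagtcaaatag
Fcer1g: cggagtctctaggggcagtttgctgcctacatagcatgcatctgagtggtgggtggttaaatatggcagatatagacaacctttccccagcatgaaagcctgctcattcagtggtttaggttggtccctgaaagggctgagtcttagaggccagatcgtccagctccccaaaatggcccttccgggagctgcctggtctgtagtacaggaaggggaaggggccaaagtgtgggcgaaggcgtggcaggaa
Fcgr2b: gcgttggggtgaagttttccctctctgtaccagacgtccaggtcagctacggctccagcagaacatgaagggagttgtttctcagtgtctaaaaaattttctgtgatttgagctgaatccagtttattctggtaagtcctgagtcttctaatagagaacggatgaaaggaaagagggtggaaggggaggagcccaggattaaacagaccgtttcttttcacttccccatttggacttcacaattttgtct
Of 32851 promoters of 300 bases in the same source, 28.3% held GAGGAA, 8.30% TTCNNNGAA and 3.44% the spaced GAAA pair. The windows of Fcgr2b (chr1:170976072-170976321, minus strand) and Fcer1g (chr1:171234350-171234599, minus strand) held none of the 3 as spelled. A match is a description of letters, and neither a match nor its absence says whether a factor binds.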

How the data were processed

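Spinal cord RNA of 16 mice was sequenced with an Illumina TruSeq stranded mRNA kit, 1 library per mouse. The deposited values are log2(1 + FPKM) per gene, made by the authors with Trimmomatic, TopHat to mm10 and Cufflinks (versions not given), without genes at 0 in 8 or more mice, and adjusted for batch with ComBat, whose covariates are not named. Of these values 915, in 542 genes, were below 0. The authors state the number of fragments per library, which was not used here. Fragment counts per gene were not used here either, so the precision is that of the spread between mice.

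Each pair of groups was fitted with limma 3.58.1 in R 4.3.3 (lmFit and eBayes, default settings, two-sided) over 18167 genes, and the interaction over all 16 mice. A gene was called if its Benjamini-Hochberg FDR was up to 0.05 and its fold change 1.5 or more. The procedure was tested on simulated data. Ratios, lists and correlations used Python 3.11.15, NumPy 2.4.6 and pandas 2.3.3, and the figures matplotlib 3.10.9. Transcripts and positions came from GENCODE M21 and promoters from RefSeq.

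The members and lists were chosen with earlier results of these data known. The named genes were the members, of each pathway and marker list the genes with the largest and smallest difference from WO to MO, 15 set genes of the pathway and of microglia, the 3 genes most like each member by each measure, their nearest measured neighbours, Xist and Ddx3y. The alternatives were a minimum mean of 1, a pseudocount of 0.1, quantile normalization, 1 fit of all groups, batch 1 only, a batch term, replicate blocks, an intensity trend, Fcer1g counted among the activating genes, and leaving out each mouse. Batch 2 only, and the pathway counts without MO5, were added after seeing the data. Some results of named genes are not reported here.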

Additional observations from a re-analysis of the deposited data

Results flagged for a closer look

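Over the named genes reported, the ratios and the differences between genes, 196 groups of 5 mice were tested for a sample far from the others of its group, and 8 were found. Chance alone gives about 1 in 20 groups tested, so the number found is near that of chance. The number does not tell whether any single sample, such as MO5 in Xist and Ddx3y, was found by chance. In MO5, the log2 level of Xist was 3.21, against -0.36 to 0.26 in the other MO mice, and that of Ddx3y was 1.95, against 4.30 to 4.70. Mbp was at 5.36 in WO4, against 12.42 to 14.22 in the other WO mice. Arpc1b was at 4.21 in WO1, against 3.82 to 3.93, and Ncr1 at 0.11 in WO3, against 0.01 in each of the others.

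Sox10 was at 5.06 in MO1, against 5.43 to 5.47 in the other MO mice, and Hba-a1 at 3.60 in the same mouse, against 5.42 to 5.99. In MO3, Cfap126 was at 2.72, against 2.38 to 2.47. None of the 5 receptor and chain genes had such a sample.

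The difference with age differed between the genotypes in the interaction fit of limma for each of the 5 genes. On the log2 scale it was 1.57 for Fcgr1, 2.02 for Fcgr3, 1.35 for Fcgr4, 2.25 for Fcer1g and 3.01 for Fcgr2b.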

How the results depend on the processing

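The 15 member results that hold MO or the interaction kept their call and direction in all 287 refits, with a limma FDR of at most 0.00538, and the 10 without MO were not called in any of 148 refits, with a lowest limma FDR of 0.0639. Leaving out 1 mouse moved the log2 difference from WO to MO between 1.44 and 1.60 for Fcgr1, 2.85 and 3.18 for Fcgr2b, 2.04 and 2.27 for Fcgr3, 1.46 and 1.56 for Fcgr4, and 2.14 and 2.39 for Fcer1g. Fcgr4 has a mean below 1 and so no value with a minimum mean of 1. With a pseudocount of 0.1 its log2 difference was 3.37 from WO to MO in place of 1.51, and 2.33 from MY to MO in place of 1.26. Its interaction was then 2.84 in place of 1.35.

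The count of genes called from WY to MY, 1, was 2 with a minimum mean of 1, 4 in 1 fit of all groups, 3 with a batch term, 2 with an intensity trend and 1 to 5 without 1 mouse (5 without WY1, 3 without WY2, 4 without WY3, 2 without MY1, 3 without MY2). That from WY to WO, 46, was 73 in batch 1 only, 88 with a batch term and 7 to 64 without 1 mouse (23 without WY1, 30 without WY2, 7 without WY3, 26 without WO2, 27 without WO3). With a pseudocount of 0.1 the counts were 1483 from MY to MO in place of 890, 1529 from WO to MO in place of 836, and 1548 in the interaction in place of 1020. The activating minus inhibitory difference was -0.35 in WY, -0.10 in MY and -0.34 in WO with a pseudocount of 0.1. With Fcer1g among the activating genes, it was 0.63 in WY, 0.73 in MY, 0.77 in WO and -0.34 in MO. The cause was not tested.

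With a replicate block the counts were 1 from WY to MY, 63 from WY to WO, 1108 from MY to MO, 840 from WO to MO and 1008 in the interaction. The mice share only a number: over 20 pairs of mice with the same number in different groups, the correlation across genes of the deviations from the group means was -0.21 to 0.38 and above 0.1 in 5.

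The limits of these data are those of bulk tissue with 3 to 5 mice in a group and no fragment counts per gene used here. Adjusted values below 0 make the smallest levels, such as those of Fcgr4, uncertain on a ratio scale. Batch 2 held only old mice, and the covariates of the batch adjustment are not named, so the young groups cannot be compared across batches. Protein, receptor function and transcripts of the transgene were not analysed here.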
